A study of Mus musculus with 12 samples.

Results

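The genes described here are 33 genes of glucose breakdown and of the hypoxia response, taken by their mouse symbols from a table of 55487 genes. They comprise 20 glycolytic genes (transporters, enzymes and the enzymes that set phosphofructokinase activity), 12 targets of the hypoxia-inducible factors (HIF) that are not glycolytic enzymes, and Hif1a itself. The 33 symbols matched 34 rows, because Aldoa was listed under 2 Ensembl IDs. The RNA came from MPC5, an immortalized mouse podocyte line, that is, a line derived from the epithelial cells on the outer face of glomerular capillaries. In the vector group, 6 libraries of genotype WT, the cells had received an empty plasmid. In the SPARCoe group, 6 libraries of genotype Sparc overexpression, they had received a plasmid for Sparc, a secreted matricellular protein that binds collagen. RNA was taken at 24 hours in this single line, and the sources used here do not give the share of cells that took up plasmid. The labels do not state that libraries of a group were separate cultures, and the p-values therefore describe the spread between libraries alone, which may be technical.

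Glycolysis splits glucose into pyruvate, which lactate dehydrogenase converts to lactate for a monocarboxylate exporter to remove. When oxygen is scarce, the prolyl hydroxylases that mark HIF alpha subunits for destruction lose activity, and the stabilized factor binds hypoxia response elements near its target genes. Most glycolytic genes are HIF targets, as are genes of mitophagy, of growth control and of the hydroxylases themselves. Podocytes are known to draw on glycolysis for energy in their foot processes.

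Sparc checked the labels. It ran from 740.9 to 772.1 CPM (the count scaled to library size, median 747.9) in vector and from 9751 to 10523.5 CPM (median 10075.5) in SPARCoe. The groups were far apart (log2 fold change 3.75 ± 0.02, SE; edgeR adjusted p = 6.69e-61). Library totals were 33051035 to 47380987 counts, and 3 counts correspond to 0.0633 to 0.0908 CPM. The first principal component of log2 CPM, with 45.2% of the variance, separated the groups, and vector replicate 4 stood apart on the second (7.34%). Markers of the labelled cell type were mixed in the vector group: Nphs1 had 0 counts (53 in SPARCoe), while Nes, Podxl and Synpo were at 1199, 88.5 and 66.6 CPM. Tubule markers were mixed too, with Lrp2 and Pax8 at 257.9 and 155.8 CPM and Umod and Slc34a1 at 0 and 2 counts.

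Most of the abundant enzymes of glycolysis differed little between the groups, while a small set of regulatory and hypoxia genes was higher in SPARCoe. The hexokinase gene Hk2 rose 1.30-fold, the phosphofructokinase regulators Pfkfb3 and Pfkfb4 rose 1.27-fold and 1.24-fold, and the HIF targets Bnip3, Ddit4 and Ndrg1 rose 1.34-fold, 1.29-fold and 1.2-fold. Of the 32 genes that passed the filter on low counts, 14 changed (43.8%) at an edgeR adjusted p under 0.05, against 29.1% of the 15734 genes tested. Higher genes numbered 13 (40.6%), against 14.9% of all genes, and 1 was lower, against 14.1%. A rise that passed the test and reached 1.2-fold was seen for 7 of the 32, against 8.61% of all genes. In 7 of 32 the ranges of the groups did not overlap, against 15.6%. The median log2 fold change was 0.07 over the 32 genes and -0.0033 over all genes tested. These are bulk libraries, in which a change in the share of cells and a change in RNA per cell cannot be told apart.

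**Figure D1:**
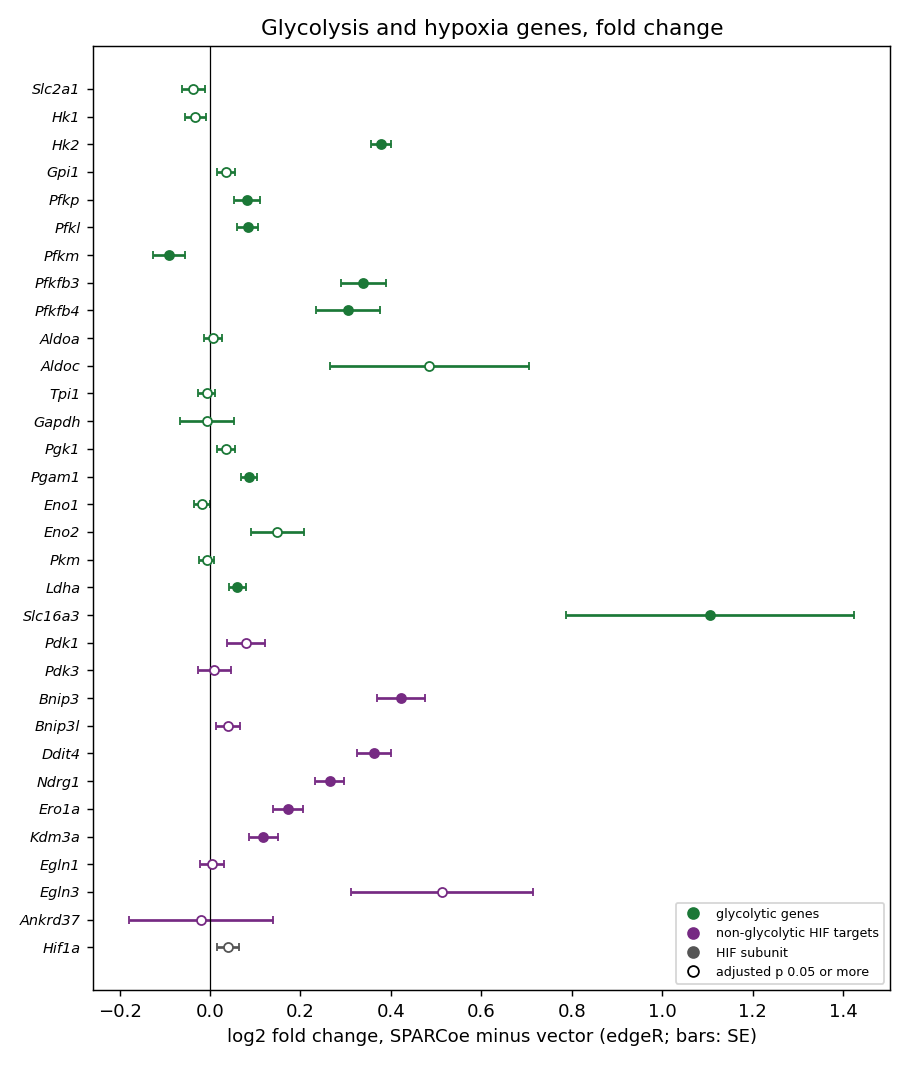
Log2 fold change of each tested gene, SPARCoe minus vector, from edgeR, with SE bars and n = 6 libraries a group. Filled points passed an adjusted p of 0.05 and open points did not. Hk2, Pfkfb3, Pfkfb4, Bnip3, Ddit4 and Ndrg1 lie right of 0 with short bars, and the longest bars belong to scarcely expressed genes such as Slc16a3.

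The promoters of 5 genes are shown because 4 of them belong to the genes that rose by at least 1.2-fold, while Pgk1, a classical HIF target enzyme, did not pass the test. Each is a RefSeq window of 300 bases, 250 before and 50 after the annotated start, in build GRCm38.p6, written 5′ to 3′ on the gene's strand. Capitals mark ACGTG or GCGTG, the core of the hypoxia response element, and the same letters read on the other strand (CACGT and CACGC). The run CACGTG holds overlapping matches, 1 on each strand. The windows are chr6:82774405-82774704 for Hk2 (minus strand), chr9:108991652-108991951 for Pfkfb4 (plus strand), chr7:138909457-138909756 for Bnip3 (minus strand), chr10:59951721-59952020 for Ddit4 (minus strand) and chrX:106186850-106187149 for Pgk1 (plus strand).
Hk2: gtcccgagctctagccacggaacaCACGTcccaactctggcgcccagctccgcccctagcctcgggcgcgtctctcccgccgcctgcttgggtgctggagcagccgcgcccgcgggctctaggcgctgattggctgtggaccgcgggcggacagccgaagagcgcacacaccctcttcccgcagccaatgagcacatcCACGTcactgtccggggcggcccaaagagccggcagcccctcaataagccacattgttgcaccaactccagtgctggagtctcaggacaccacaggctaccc
Pfkfb4: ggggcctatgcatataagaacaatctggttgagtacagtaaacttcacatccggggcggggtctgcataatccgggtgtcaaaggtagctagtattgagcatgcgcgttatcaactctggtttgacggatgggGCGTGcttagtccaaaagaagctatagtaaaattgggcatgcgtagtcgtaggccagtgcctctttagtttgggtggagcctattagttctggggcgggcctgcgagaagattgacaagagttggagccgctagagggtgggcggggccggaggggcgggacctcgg
Bnip3: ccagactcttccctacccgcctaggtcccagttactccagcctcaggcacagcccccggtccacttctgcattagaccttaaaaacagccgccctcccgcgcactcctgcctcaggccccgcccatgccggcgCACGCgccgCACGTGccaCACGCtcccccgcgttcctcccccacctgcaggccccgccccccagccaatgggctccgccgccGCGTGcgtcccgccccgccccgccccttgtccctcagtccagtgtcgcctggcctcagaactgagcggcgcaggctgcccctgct
Ddit4: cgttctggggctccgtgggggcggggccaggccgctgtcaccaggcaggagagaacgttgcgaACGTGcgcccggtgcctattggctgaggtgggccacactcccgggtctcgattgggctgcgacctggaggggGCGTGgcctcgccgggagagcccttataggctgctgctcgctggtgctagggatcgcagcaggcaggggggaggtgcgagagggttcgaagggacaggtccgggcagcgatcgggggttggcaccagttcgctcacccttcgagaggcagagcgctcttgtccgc
Pgk1: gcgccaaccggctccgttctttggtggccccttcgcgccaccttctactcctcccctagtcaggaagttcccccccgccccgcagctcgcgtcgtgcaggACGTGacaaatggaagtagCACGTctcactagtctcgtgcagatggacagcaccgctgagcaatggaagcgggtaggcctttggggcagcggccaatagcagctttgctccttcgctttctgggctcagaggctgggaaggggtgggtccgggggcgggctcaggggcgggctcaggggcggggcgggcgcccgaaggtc

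In GENCODE M21 (GRCm38) the gene bodies are chr6:82725025-82774454 for Hk2, chr9:108991778-109032228 for Pfkfb4, chr7:138890836-138909519 for Bnip3, chr10:59949669-59951834 for Ddit4 and chrX:106187100-106203699 for Pgk1, all protein-coding. Bnip3 held 5 matches, Hk2, Ddit4 and Pgk1 held 2 each, and Pfkfb4 held 1. A window was found for 31 of the 33 genes, all but Ndrg1 and Bnip3l. Of these, 28 (90.3%) held at least 1 match, against 46.7% of the 27025 genes with a window (43.8% of 32851 windows). A gene with several windows counted if any of them held a match, and the number of windows per gene was not matched. The glycolytic genes had 17 of 20 with a match and the other HIF targets 10 of 10. Among genes called higher, 12 of 12 had a match, and among the others 16 of 19 (84.2%). Letters in a window do not show binding, and base composition was not matched in this count. The 2 lists were chosen to begin with as HIF targets and as glycolytic genes, most of which are HIF targets.

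Glucose entry and the first phosphorylation differed by isoform. Slc2a1 encodes the glucose transporter GLUT1 and ran from 123 to 134 CPM (median 128) in vector and from 120.3 to 129.97 CPM (median 125) in SPARCoe. The groups overlapped and the log2 fold change was -0.04 ± 0.03 (SE, edgeR adjusted p = 0.302). Hk1, the constitutive hexokinase, ran from 207 to 222 CPM (median 212) in vector and from 202 to 219 CPM (median 205) in SPARCoe, again with overlap (-0.03 ± 0.02, adjusted p = 0.326). Hk2, the inducible hexokinase, ran from 163 to 175 CPM (median 171) in vector and from 213 to 227 CPM (median 220.1) in SPARCoe. Every SPARCoe library lay above every vector library, and means went from 169.7 ± 4.67 to 220.7 ± 5.34 CPM, with SD over 6 libraries (log2 fold change 0.38 ± 0.02, SE, edgeR adjusted p = 4.16e-18). Gpi1, which isomerizes glucose phosphate to fructose phosphate, ran from 458 to 486 CPM (median 468) in vector and from 470.3 to 497 CPM (median 481) in SPARCoe. The spans overlapped and the difference did not pass (log2 fold change 0.03 ± 0.02, adjusted p = 0.198).

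The committed step is carried out by phosphofructokinase, which has 3 subunit genes. Pfkl, the liver-type subunit, ran from 217 to 230.4 CPM (median 223) in vector and from 227 to 252 CPM (median 235) in SPARCoe, with 4 of 6 SPARCoe libraries above the vector maximum (log2 fold change 0.08 ± 0.02, edgeR adjusted p = 0.00435). Pfkp, the platelet type, ran from 116 to 134 CPM (median 122) and from 123 to 136 CPM (median 129). It rose by as little (0.08 ± 0.03, adjusted p = 0.0296), only 1 SPARCoe library exceeded the vector maximum, and the call was lost in 5 of the 12 fits that left out a library (without vector replicate 2, 4 or 6, or SPARCoe replicate 2 or 3; adjusted p up to 0.0977). It was also lost by DESeq2, on the deposited FPKM values under all 3 settings, with glmTreat and at an adjusted p under 0.01. Pfkm, the muscle type, ran from 60.2 to 70.1 CPM (median 63.2) in vector and from 56.0 to 62.3 CPM (median 60.6) in SPARCoe, and was the only gene of the 32 called lower (-0.09 ± 0.03, adjusted p = 0.0456). Its groups overlapped, and the call was lost in 7 of those 12 fits (without vector replicate 3, 4 or 6, or SPARCoe replicate 1, 2, 3 or 5; adjusted p up to 0.222) and by DESeq2. The gene bodies of Pfkp and Pfkm overlap the protein-coding genes Pitrm1 and Senp1 on the opposite strand in GENCODE M21, and whether counting used strand is not stated in those sources.

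The PFKFB enzymes make and remove the allosteric activator of phosphofructokinase, and both family members in the set, Pfkfb3 and Pfkfb4, were higher in SPARCoe. Pfkfb3, the form with the strongest kinase activity, ran from 19.1 to 22.6 CPM (median 20.9) in vector and from 24.1 to 28.1 CPM (median 27.0) in SPARCoe. The groups did not overlap (log2 fold change 0.34 ± 0.05, SE, edgeR adjusted p = 3.47e-07). Pfkfb4 ran from 7.81 to 9.33 CPM (median 8.47) in vector and from 9.57 to 11.7 CPM (median 10.5) in SPARCoe. Its groups were also apart, by a narrow gap (0.31 ± 0.07, adjusted p = 0.000779). The other 2 genes of the family, outside the set and named after their values were seen, did not pass: Pfkfb1 was at 6.51 ± 0.607 CPM and Pfkfb2 at 10.5 ± 0.853 CPM in vector (SD, n = 6), with log2 fold changes of 0.05 ± 0.09 and 0.07 ± 0.07 (SE, adjusted p = 0.723 and 0.532).

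**Figure D2:**
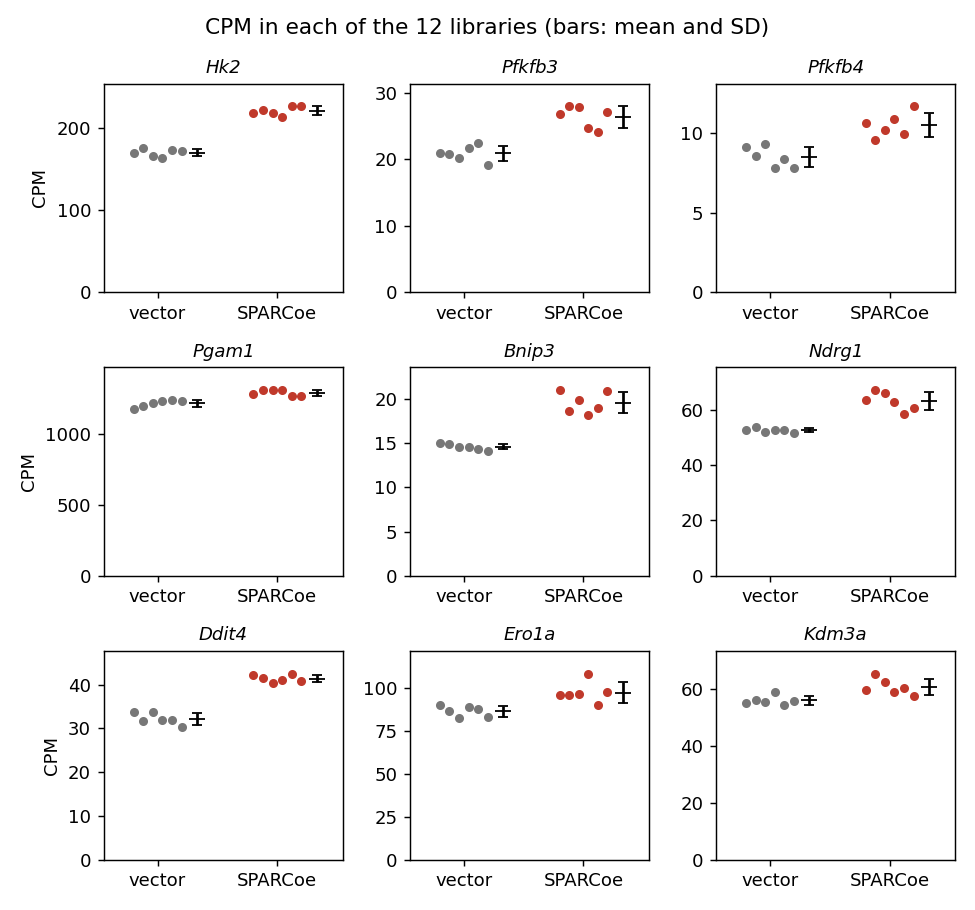
CPM of 9 genes in each of the 12 libraries (points), with the mean and SD of each group (n = 6) as a bar. The groups are apart for Hk2, Pfkfb3, Pfkfb4, Pgam1, Bnip3, Ndrg1 and Ddit4, and overlap for Ero1a and Kdm3a.

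The aldolase and triose steps showed no called change. Aldoa, the main aldolase, ran from 843 to 925 CPM (median 860.5) in vector and from 848 to 896 CPM (median 873) in SPARCoe, with full overlap (log2 fold change 0.01 ± 0.02, edgeR adjusted p = 0.864). The second Ensembl ID for Aldoa (ENSMUSG00000114515) held 990 counts in all and did not pass either (0.05 ± 0.15, adjusted p = 0.866). Aldoc, the brain-type aldolase, was scarce, at 0.506 to 1.04 CPM (median 0.779) in vector and 0.716 to 1.42 CPM (median 1.05) in SPARCoe (0.48 ± 0.22, adjusted p = 0.0955), and passed only without vector replicate 3 or SPARCoe replicate 3 among the fits that left out a library. Tpi1, triose phosphate isomerase, ran from 659.8 to 708 CPM (median 676) and from 653 to 697 CPM (median 675), the groups covering nearly the same span (-0.01 ± 0.02, adjusted p = 0.832).

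Gapdh, the enzyme often used as a reference transcript, had a low row for this enzyme. It ran from 35.5 to 46.6 CPM (median 37.8) in vector and from 34.3 to 42.6 CPM (median 39.2) in SPARCoe (log2 fold change -0.01 ± 0.06, edgeR adjusted p = 0.963). Over all libraries the row held 19358 counts, while 78 genes with a near-identical stretch (at least 200 bases at 95% identity or more) held 905952. Of those, Gm13394, a processed pseudogene in GENCODE M21, had 1783 ± 37.3 CPM in the vector group and 1726 ± 52.9 CPM in the SPARCoe group (SD, n = 6). The sources used here do not say how reads matching several places were counted, and the level of Gapdh RNA cannot be read from this row alone. With the near-identical rows added, a choice made after seeing the data, Gapdh ran from 1834 to 1946 CPM (median 1881) in vector and from 1766 to 1898 CPM (median 1824) in SPARCoe. The sums overlapped between groups and passed the test narrowly (-0.05 ± 0.02, adjusted p = 0.0485). Near-identical rows held at most 9.15% of the counts of any other gene listed here, the highest being Bnip3l and then Eno1 (8.36%), and adding them changed no other call.

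In the second, energy-yielding stretch of the pathway, the most abundant enzymes differed by less than 10%. Pgk1, phosphoglycerate kinase, ran from 931 to 1021 CPM (median 1007) in vector and from 1000.1 to 1042 CPM (median 1023) in SPARCoe. One low vector library widened that group, and the difference did not pass (log2 fold change 0.04 ± 0.02, edgeR adjusted p = 0.178). Pgam1, phosphoglycerate mutase, ran from 1179 to 1238 CPM (median 1225) and from 1268 to 1312 CPM (median 1295). Its groups were apart although the rise was 6.16% (0.09 ± 0.02, adjusted p = 6.96e-05). Eno1, the main enolase, ran from 2442 to 2644 CPM (median 2553) and from 2461 to 2622 CPM (median 2495), and Pkm, pyruvate kinase, from 2538 to 2701 CPM (median 2629.9) and from 2564 to 2681 CPM (median 2613). Neither pair of groups was apart and neither gene passed (-0.02 ± 0.02 and -0.01 ± 0.02; adjusted p = 0.539 and 0.791). Eno2, the neuronal enolase, ran from 16.8 to 18.5 CPM (median 17.1) in vector and from 17.0 to 23.1 CPM (median 19.1) in SPARCoe, where SPARCoe replicate 2 was the highest. It lay at the threshold (0.15 ± 0.06, adjusted p = 0.0505), and passed with RLE or upper-quartile factors, with Sparc left out or with a filter of 1 CPM in 6 libraries (lowest adjusted p 0.0349), and without vector replicate 1 or 3 or SPARCoe replicate 1, 5 or 6 (lowest 0.0151).

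Lactate formation and export closed the pathway. Ldha, the lactate dehydrogenase subunit favoured in glycolytic cells, ran from 1668 to 1774 CPM (median 1729.7) in vector and from 1763 to 1886 CPM (median 1787) in SPARCoe. The groups overlapped slightly and the rise was 4.29% (log2 fold change 0.06 ± 0.02, edgeR adjusted p = 0.00779). Slc16a3, the lactate exporter MCT4, was nearly silent, at 0.168 to 0.792 CPM (median 0.230) in vector and 0.382 to 0.927 CPM (median 0.758) in SPARCoe. It had 82 counts in the vector group and 187 in SPARCoe. Vector replicates 1 and 4 reached into the SPARCoe range, and the gene rose (1.11 ± 0.32, adjusted p = 0.00635) but missed the threshold when all genes were fitted as log2(FPKM + 1) (adjusted p = 0.0616).

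**Figure D3:**
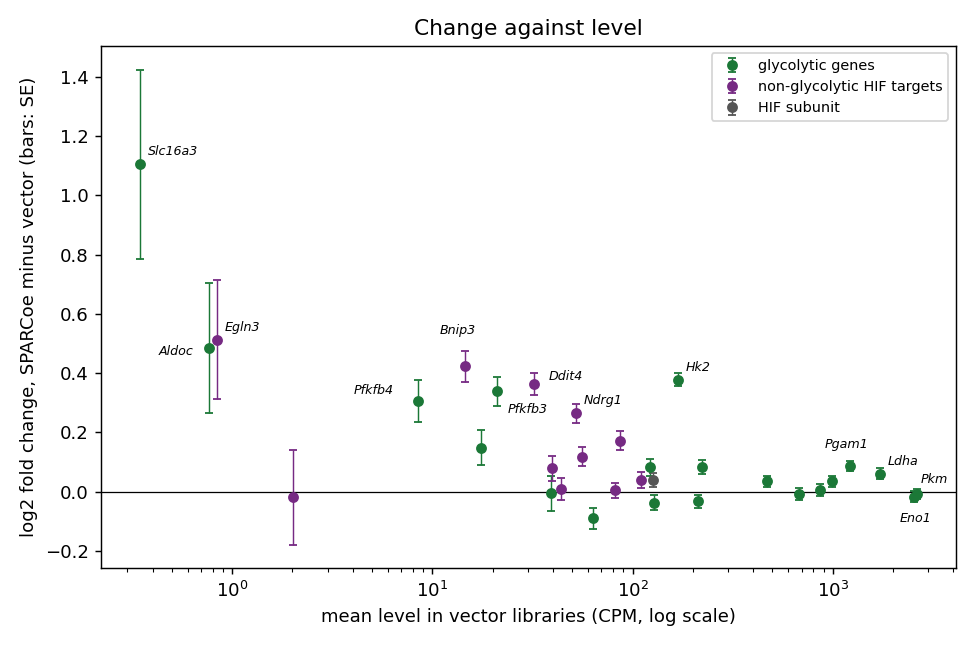
Log2 fold change (SPARCoe minus vector, bars SE) against the mean level in the vector libraries (CPM, log axis) for the 32 tested genes, coloured by list. Of the genes above 100 CPM, all but Hk2 (0.38) lie within 0.1 of 0.

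Counts of called genes are set here beside those of all genes of like level. Among 2503 tested genes with a mean of 100 CPM or more, 15.9% were higher and 30.2% lower in SPARCoe. Of the 15 genes of the set in that range, 5 were higher and 0 lower, with a median log2 fold change of 0.04. Between 10 and 100 CPM, 15.2% of 6623 genes were higher and 18.3% lower, and of 12 genes of the set 6 were higher and 1 lower. Below 10 CPM the set had 5 tested genes, 2 of them higher, against 14.3% of 6608. FPKM values are counts scaled by library total and by the authors' gene length. Over the tested genes of the set, vector means ran from 2723 FPKM for Eno1 to 0.225 FPKM for Slc16a3. Between them, Pkm was at 2387 FPKM, Hk2 at 72.1 FPKM and Pfkfb3 at 9.46 FPKM.

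The HIF targets outside glycolysis comprised 5 that rose and 6 that did not pass the test. Bnip3, a mitochondrial receptor for mitophagy, ran from 14.2 to 15.03 CPM (median 14.6) in vector and from 18.1 to 21.0 CPM (median 19.4) in SPARCoe. The groups were well apart (log2 fold change 0.42 ± 0.05, SE, edgeR adjusted p = 1.47e-08). Its relative Bnip3l (NIX) ran from 107 to 114 CPM (median 109.8) and from 107 to 118 CPM (median 113) and overlapped (0.04 ± 0.03, adjusted p = 0.281). Ddit4 (REDD1), an inhibitor of the growth kinase complex mTORC1, ran from 30.2 to 33.8 CPM (median 31.9) and from 40.4 to 42.5 CPM (median 41.3). Every SPARCoe library exceeded every vector library (0.36 ± 0.04, adjusted p = 9.19e-11). Ndrg1, a stress-responsive gene of the NDRG family, ran from 51.5 to 53.8 CPM (median 52.5) and from 58.5 to 67.1 CPM (median 63.1), also without overlap (0.26 ± 0.03, adjusted p = 9.87e-09).

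Smaller rises were seen in an oxidoreductase and a demethylase. Ero1a, which reoxidizes protein disulfide isomerase in the endoplasmic reticulum, ran from 82.5 to 90.3 CPM (median 87.3) in vector and from 90.1 to 108.6 CPM (median 96.3) in SPARCoe. Only SPARCoe replicate 5 fell inside the vector range (log2 fold change 0.17 ± 0.03, edgeR adjusted p = 5.61e-05). Kdm3a, a histone H3 lysine demethylase, ran from 54.4 to 59.1 CPM (median 55.7) and from 57.7 to 65.5 CPM (median 60.2). It overlapped in part, with 4 of 6 SPARCoe libraries above the vector maximum (0.12 ± 0.03, adjusted p = 0.00415).

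The prolyl hydroxylase genes Egln1 and Egln3 and the kinase genes Pdk1 and Pdk3 did not pass. Egln1 (PHD2), the main HIF prolyl hydroxylase, ran from 79.7 to 83.9 CPM (median 82.1) in vector and from 81.4 to 83.9 CPM (median 82.1) in SPARCoe, an almost equal span (log2 fold change 0.0049 ± 0.03, edgeR adjusted p = 0.925). Egln3 (PHD3), its hypoxia-inducible relative, was scarce and ran from 0.709 to 1.02 CPM (median 0.849) and from 0.885 to 1.52 CPM (median 1.18). With 4 of 6 SPARCoe libraries above the vector maximum it lay at the threshold (0.51 ± 0.20, adjusted p = 0.0504), and passed with RLE or upper-quartile factors (adjusted p = 0.0499 and 0.0476) and without vector replicate 4 or SPARCoe replicate 3 or 4 (lowest adjusted p 0.028). Pdk1 and Pdk3, kinases that switch off pyruvate dehydrogenase, overlapped between groups (0.08 ± 0.04 and 0.01 ± 0.04; adjusted p = 0.164 and 0.889), at 37.1 to 45.9 and 39.7 to 46.2 CPM over all libraries. Pdk2, a kinase of the same family outside the set and named after its value was seen, was scarce and fell from 1.70 ± 0.303 to 1.16 ± 0.337 CPM with overlap (SD, n = 6; log2 fold change -0.55 ± 0.19, SE, adjusted p = 0.0201). Ankrd37, an ankyrin repeat gene used as a hypoxia marker, ran from 1.60 to 2.83 CPM (median 1.91) and from 1.56 to 2.35 CPM (median 2.05) and did not pass (-0.02 ± 0.16, adjusted p = 0.952). Its gene body overlaps the protein-coding genes Ufsp2 and Lrp2bp on the opposite strand. The overlapping genes held 27141 counts beside 982 for Ankrd37, and whether counting used strand is not stated. Adm, the vasodilator adrenomedullin, had 43 counts in vector and 34 in SPARCoe, was too low for the fit, and gave an exact two-sided permutation p of 0.669 over 924 assignments (smallest possible 0.00216).

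Hif1a, the oxygen-regulated subunit, ran from 125 to 129 CPM (median 127) in vector and from 122 to 134 CPM (median 132) in SPARCoe. SPARCoe replicate 5 was below every vector library while the other 5 were above them all, and the difference did not pass (log2 fold change 0.04 ± 0.02, edgeR adjusted p = 0.246). HIF alpha is controlled mainly at the protein level, which was not measured.

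Set side by side, the glycolytic list had 8 of 20 genes higher, 1 lower and 11 not called, with a median log2 fold change of 0.05. Of the 11 tested HIF targets outside glycolysis, 5 were higher and 0 lower, with a median of 0.12, beside -0.0033 over all genes. Among all genes tested, 14.9% were higher and 14.1% lower. In 14 of the 20 glycolytic genes the change was smaller than 0.1 on the log2 scale, as it was in 5 of the 11 others. The same held for 8007 of the 15734 genes tested. Within glycolysis, the 12 genes from transport to aldolase, with the exporter and PFKFB genes, had 6 higher and 1 lower (median 0.08). The 8 enzymes from triose phosphate to lactate had 2 higher and 0 lower (median 0.01). Summed over the list, glycolytic genes held 12141 ± 269 CPM in the vector group and 12352 ± 195 CPM in the SPARCoe group (SD, n = 6), and the libraries overlapped. That sum takes Gapdh from its own row, at means of 39.0 CPM in vector and 38.9 CPM in SPARCoe. With near-identical rows added, Gapdh alone held 1891 and 1830 CPM. The HIF targets held 520.7 ± 8.78 and 567 ± 14.3 CPM, and their ranges (509 to 529 and 547 to 581 CPM) did not overlap. The difference between the lists was not tested, since the genes of a list are not replicates.

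**Figure D4:**
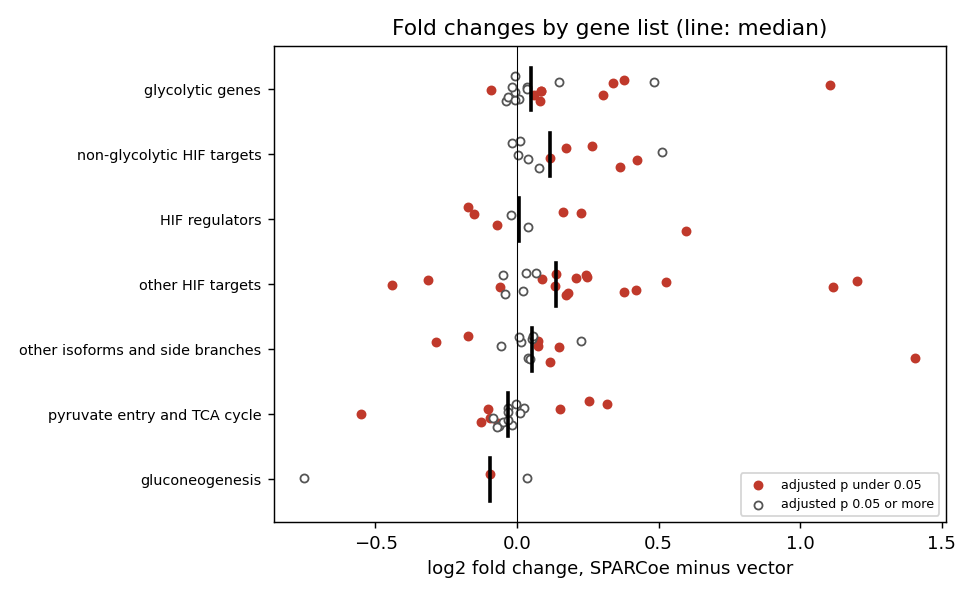
Log2 fold change (SPARCoe minus vector) of every tested gene of 7 gene lists, with a line at each median. Filled points passed an edgeR adjusted p of 0.05. Medians are 0.05 for glycolytic genes, 0.12 for the HIF targets of the set and 0.14 for other HIF targets.

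Ratios of isoforms within a library compare genes of one step without the library's scaling. Hk2 relative to Hk1 went from a median of 0.441 in vector to 0.580 in SPARCoe in FPKM, with no overlap (log2 difference 0.41 ± 0.03, SE, n = 6; exact permutation p = 0.00216, two-sided, and 0.00974 adjusted over 9 ratios). Bnip3 relative to Bnip3l went from 0.241 to 0.311, also without overlap (0.38 ± 0.05, exact p = 0.00216, adjusted p = 0.00974). Pfkm relative to Pfkl fell from 0.178 to 0.162 (log2 difference -0.17 ± 0.04, exact p = 0.00433, adjusted p = 0.013), with overlap. Egln3 relative to Egln1 rose from 0.0138 to 0.0195 (0.49 ± 0.15, exact p = 0.013, adjusted p = 0.0292), and lost the call without vector replicate 2 or vector replicate 6 (adjusted p = 0.0584 for each). The other 5 ratios did not pass, among them Pfkfb4 to Pfkfb3 (-0.03 ± 0.08, exact p = 0.686) and Pfkp to Pfkl (0.00062 ± 0.04, exact p = 0.989). Aldoc to Aldoa and Eno2 to Eno1 both had an exact p of 0.039 and an adjusted p of 0.0584. Without vector replicate 3 or SPARCoe replicate 3 the aldolase ratio passed (adjusted p = 0.0351 and 0.0156), and without vector replicate 1 or SPARCoe replicate 1 the enolase ratio passed (adjusted p = 0.0341 and 0.0351). The level of an FPKM ratio depends on the authors' lengths, and the difference between groups does not.

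**Figure D5:**
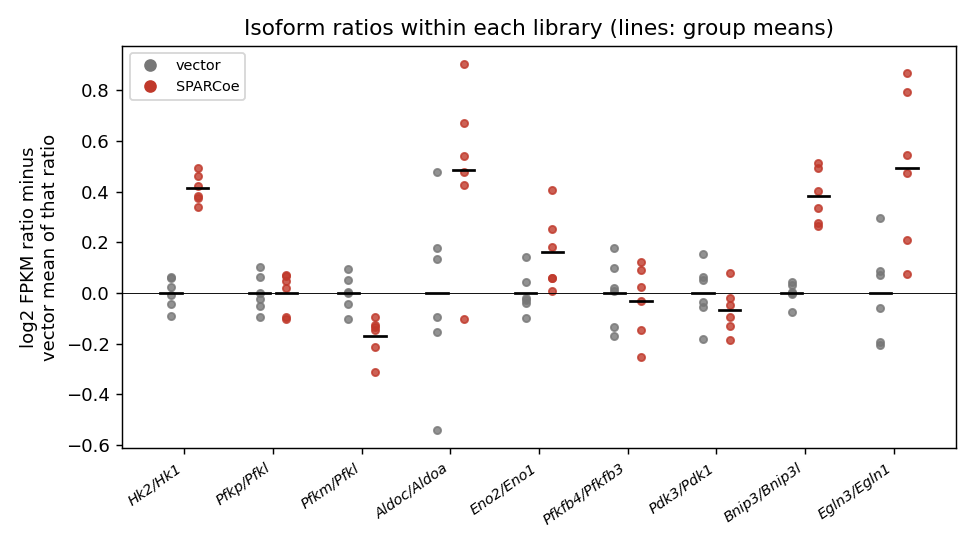
Log2 FPKM ratio of 9 isoform pairs in each library, minus the vector mean of that ratio, with lines at the group means. Hk2/Hk1 and Bnip3/Bnip3l are higher in all 6 SPARCoe libraries than in any vector library, and the other pairs overlap.

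Neighbouring gene lists were counted the same way, against the 14.9% higher and 14.1% lower among all genes tested. Of 8 tested HIF regulators, 3 were higher (37.5%) and 3 lower. The HIF partners Arnt and Arnt2 fell by 0.15 and 0.17 on the log2 scale (edgeR adjusted p = 2.84e-05 and 4.23e-06). Cited2, which competes with HIF for its coactivator, rose from 405 ± 9.62 to 454 ± 19.1 CPM (SD, n = 6), and Siah2, a ubiquitin ligase of the prolyl hydroxylases, rose by 0.22. Epas1 (HIF-2 alpha) rose by 0.60 at a level of 1.00 ± 0.244 CPM in vector. The hydroxylase of the HIF transactivation domain, Hif1an, fell by 0.07 (adjusted p = 0.0219) and is named after its value was seen.

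Of 21 tested HIF targets outside the set, 13 were higher (61.9%) and 3 lower (median 0.14), against 14.9% and 14.1% of all genes. Ier3, an immediate early survival gene, rose from 95.04 ± 2.66 to 137 ± 2.80 CPM, and Hmox1, heme oxygenase, from 83.4 ± 2.23 to 112 ± 3.75 CPM (SD, n = 6). Vegfa, the endothelial growth factor, rose by 0.38 and Tfrc, the transferrin receptor, by 0.21 on the log2 scale. P4ha1, a collagen prolyl hydroxylase, went the other way and fell from 291 ± 8.01 to 234 ± 7.5 CPM (adjusted p = 1.73e-15). Several of these genes are also targets of other stress pathways.

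Side branches and other isoforms of glycolysis had 5 of 15 higher (33.3%) and 2 lower (median 0.05), the latter near the 14.1% of all genes, beside 14.9% higher. Slc16a1, the lactate carrier MCT1, rose by 0.15 (edgeR adjusted p = 6.72e-06) at 188 ± 5.86 CPM in vector, far above Slc16a3. Tkt, transketolase of the pentose phosphate pathway, fell by 0.17, and Eno3, the muscle enolase, fell by 0.29 from 68.1 ± 2.82 CPM (SD, n = 6). Gpd2, the mitochondrial glycerol phosphate dehydrogenase, rose by 0.12 and Pgd, of the oxidative pentose branch, by 0.07.

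Downstream of pyruvate, 3 of 19 genes were higher (15.8%, near the 14.9% of all genes) and 5 lower, against 14.1% (median -0.03). Both pyruvate dehydrogenase phosphatase genes, which switch the complex on, rose: Pdp1 from 28.6 ± 1.34 to 35.6 ± 1.34 CPM and Pdp2 from 30.2 ± 0.997 to 36.0 ± 1.78 CPM (edgeR adjusted p = 2.64e-08 and 2.07e-06; SD, n = 6). The citric acid cycle genes Sdha and Fh1 fell by 0.10 and 0.09 (log2). Among 3 tested gluconeogenic genes 0 were higher and 1 was lower, the mitochondrial carboxykinase Pck2, which fell by 0.10 (adjusted p = 0.00545).

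Markers of other cell types differed between the groups for some lists and not for others. Among all genes tested, 14.9% were higher and 14.1% lower, and among those at 100 CPM or more 15.9% and 30.2%. Tubule markers were lower in 3 of 3 tested of 5 listed, with summed levels of 419.8 to 433 CPM in vector and 319.9 to 335 CPM in SPARCoe, Umod being at 0 counts. Slc34a1, too low for the test, had 2 counts in vector and 74 in SPARCoe, and its ranges did not overlap. Podocyte markers were 2 higher and 2 lower among 4 tested of 7, with sums of 1319 to 1391 and 1168 to 1226 CPM. Mesangial and fibroblast markers had 2 of 4 lower (44.6 to 52.6 and 38.1 to 42.4 CPM). Endothelial markers had 1 higher and 1 lower of 3 tested of 4 (1.92 to 2.93 and 1.74 to 3.31 CPM), and leukocyte markers 0 of 1 tested of 4 (4.55 to 6.73 and 5.34 to 7.39 CPM). Adgre1 had 0 counts in vector and 4 in SPARCoe. The part of these shifts in the results above was not tested.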

How the data were processed

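Counts per gene came from poly(A)-selected mRNA, and the authors deposited them as whole-number read counts beside FPKM values. Per the submitters' processing notes the tools included HISAT2, Bowtie2, SAMtools, Picard, featureCounts and edgeR, with no version or role. Genome build, annotation and strand setting: not given in the sources used here. In the deposited FPKM table, counts were scaled by the library total and by 1 whole length per gene (within 0.001, 31742 genes).

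The test was edgeR 4.0.16 in R 4.3.3 on all 12 libraries: TMM factors, filterByExpr (15734 genes kept), robust quasi-likelihood fit, two-sided, Benjamini-Hochberg adjustment over all genes kept, threshold 0.05. SE is that of the log2 fold change. CPM values used TMM factors. Isoform ratios of FPKM were tested on the log2 scale by exact permutation over 924 assignments. Counting intervals and floors cover counting error only, since reads carry no molecular identifiers and 56.36% of counts from 1 to 10 were even. Symbols matched 55141 of 55487 IDs, and Ero1a was matched through its older symbol Ero1l. For Aldoa the ID with more counts was used. Near-identical genes were found with blastn 2.17.0 against GENCODE M21 (GRCm38). The fit was tested on simulated data with known changes. It recovered 63.4% of 82 genes changed 1.2-fold, 71.2% of 59 changed 1.5-fold and 91.5% of 59 changed 2-fold. False calls numbered 9 among 15523 genes. A gene that did not pass is therefore not shown to be unchanged.

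Settings varied were the normalization (RLE, upper-quartile), Sparc left out, no filter, a filter of 1 CPM in 6 libraries, DESeq2 1.42.0, limma-voom with quality weights and limma trend on FPKM (limma 3.58.1; pseudocounts 1 and 0.1), a replicate block, glmTreat against 1.2-fold, an adjusted p under 0.01, each library left out in turn, and, added after seeing the data, near-identical rows summed. The genes and lists were chosen with earlier results of these data known. The text names every gene of the set, Sparc, and from each neighbouring list up to 5 genes past the test with the smallest p, and any further gene was picked with its value in view. Some genes that this rule took are not reported here.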

Additional observations from a re-analysis of the deposited data

Results flagged for a closer look

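In 4 of 68 groups of 6 libraries, 1 library lay far from the others, with a gap to its nearest neighbour, as a share of the group's range, above Dixon's critical value. Chance gives about 1 in 20 such groups. Aldoa was highest in vector replicate 5, at 925 CPM against 870.4 CPM in the next library (gap of 0.667 of the range). Pgk1 was lowest in vector replicate 1, at 931 CPM against 991 CPM (0.673). Kdm3a was highest in vector replicate 4, at 59.1 CPM against 56.2 CPM (0.628). Hif1a was lowest in SPARCoe replicate 5, at 122 CPM against 129.9 CPM (0.641).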

How the results depend on the processing

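There were 823 pairs of a gene and an alternative (14 alternatives and 12 fits without 1 library). Of these, 770 kept their side of the threshold, 36 lost the call, 17 gained it and 0 reversed a call. Genes that were not called could change sign: Ankrd37 ran from -0.077 to 0.094 with a library left out. Sparc stayed between 3.74 and 3.77. With glmTreat against 1.2-fold, 992 genes changed in place of 4571 (4276 to 4476 with a library left out), 2 glycolytic genes were higher in place of 8 (7 to 10), and 2 HIF targets in place of 5 (5 to 6). Hk2, Slc16a3, Bnip3 and Ddit4 are those 4. Glycolytic genes called lower numbered 0 with upper-quartile factors, the 1 CPM filter, DESeq2, limma-voom, glmTreat, an adjusted p under 0.01 and all 3 FPKM settings, 2 with near-identical rows summed, and 0 to 1 with a library left out. The cause was not tested. The median of the glycolytic genes stayed between 0.035 and 0.062 and that of the HIF targets between 0.092 and 0.133.

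Replicate numbers did not pair the libraries: correlations of same-numbered deviations were -0.0106 to 0.0147, and 0 of 6 SPARCoe libraries correlated best with their own number. A replicate block gave 4663 changed genes, with 8 glycolytic genes higher and 1 lower and 5 HIF targets higher. Isoform ratios in a sign-flip test of the pairing, whose smallest p is 0.03125, kept their size but lost the call for Hk2/Hk1 (0.41, adjusted p = 0.0938, exact), Bnip3/Bnip3l (0.38, 0.0938), Pfkm/Pfkl (-0.17, 0.0938) and Egln3/Egln1 (0.49, 0.188). Hk2/Hk1, Bnip3/Bnip3l and Pfkm/Pfkl were at that smallest p, the most extreme result this test can give. It did not pass after adjustment over 9 ratios, so their lost calls do not show a weaker difference. With a library left out, Aldoc/Aldoa ran from 0.38 to 0.60, Eno2/Eno1 from 0.11 to 0.19 and Egln3/Egln1 from 0.42 to 0.58. Depth limits Slc16a3, Aldoc, Egln3, Ankrd37 and Adm, whose levels lie nearest the floor of 3 counts.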
